A study of Mus musculus with 8 samples.

Results

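The 10 genes described here set or mark the choice between an epithelial and a mesenchymal state: Snai1, Snai2, Zeb1, Zeb2, Twist1, Twist2, Esrp1, Esrp2, Grhl2 and Ovol2. Their probes were found by gene name among the array probes that are not controls, which gave 14 probes for 10 genes of 35072 names on the array, and all 14 were well above background on at least 1 array. The cells were duct precursors sorted by a Hoxb7-GFP transgene at E8.75 (1 array, no selection on Flk1 stated), at E9.5 (a caudal and a rostral part, Flk1-negative), at E10.5 (a caudal and a rostral part, Flk1-negative) and at E11.5 (1 array of the ureteric bud, Flk1-negative), and intermediate mesoderm cells of E9.5 sorted by Wt1-GFP (a caudal and a rostral part, no selection on Flk1 stated), all from ICR mouse embryos. The Hoxb7-GFP cells are those in which the reporter is on, and no label says how many embryos were pooled or that arrays came from separate animals. There were no true replicates. The only spread observed for a probe is the inconsistency of the caudal to rostral difference among the E9.5 duct, E10.5 duct and Wt1-GFP cells. For every p-value, limma combined it with a prior variance fitted over all tested probes.

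Snai1, Snai2, Zeb1 and Zeb2 are zinc finger repressors that bind E-boxes in the promoters of epithelial genes such as E-cadherin, and Twist1 and Twist2 are basic helix-loop-helix factors that pair with E proteins. They drive the epithelial to mesenchymal transition, in which cells give up their junctions. Grhl2 and Ovol2 are transcription factors that hold cells in the epithelial state, Grhl2 by activating junction genes and both by restraining Zeb1, and Esrp1 and Esrp2 are RNA-binding proteins that set the epithelial pattern of splicing. The nephric duct itself arises from intermediate mesoderm by the reverse change, a mesenchymal to epithelial transition.

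Levels below are on a log2 scale on which 0 is the 75th percentile of the array, and a probe is named by its listed start in the transcript where a gene has several. Arrays had 60.5% to 69.1% of their probes well above background and 0 saturated member spots. The shares were 60.5% to 61.5% on both Wt1-GFP arrays and the caudal E10.5 array, and 65.4% to 69.1% on the others. The dimmest probe well above background stood at -4.22 to -3.95 on the former and at -4.76 to -4.37 on the latter. A dim probe could thus miss that call on the former at a level that passed on the latter. Pax2, a duct gene that intermediate mesoderm also expresses, lay between 4.2 and 5.69 on the duct arrays and at 1.32 and 2.71 on the Wt1-GFP arrays, and Wt1 itself was at -1.94 and -0.2 in the caudal and rostral E9.5 duct, against 4.01 and 4.08 in the Wt1-GFP cells. Kdr, the gene of Flk1, was at 4.12 at E8.75, between 1.47 and 1.95 on the later duct arrays and at 2.1 on each Wt1-GFP array. Markers of other cells also differed between arrays. All 14 endothelial markers were well above background at E8.75 (median 1.03, summed signal 55.6 times the array's 75th percentile, with Cdh5 at 2.61), against 4 to 13 of 14 and sums of 3.38 to 8.34 on the other arrays. Of 12 endoderm markers 11 were well above background at E8.75 (sum 11.8), against 2 to 7 and sums of 0.737 to 2.23 on the others. In a bulk sample, fewer cells of a type and less RNA per cell cannot be told apart.

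**Figure D1:**
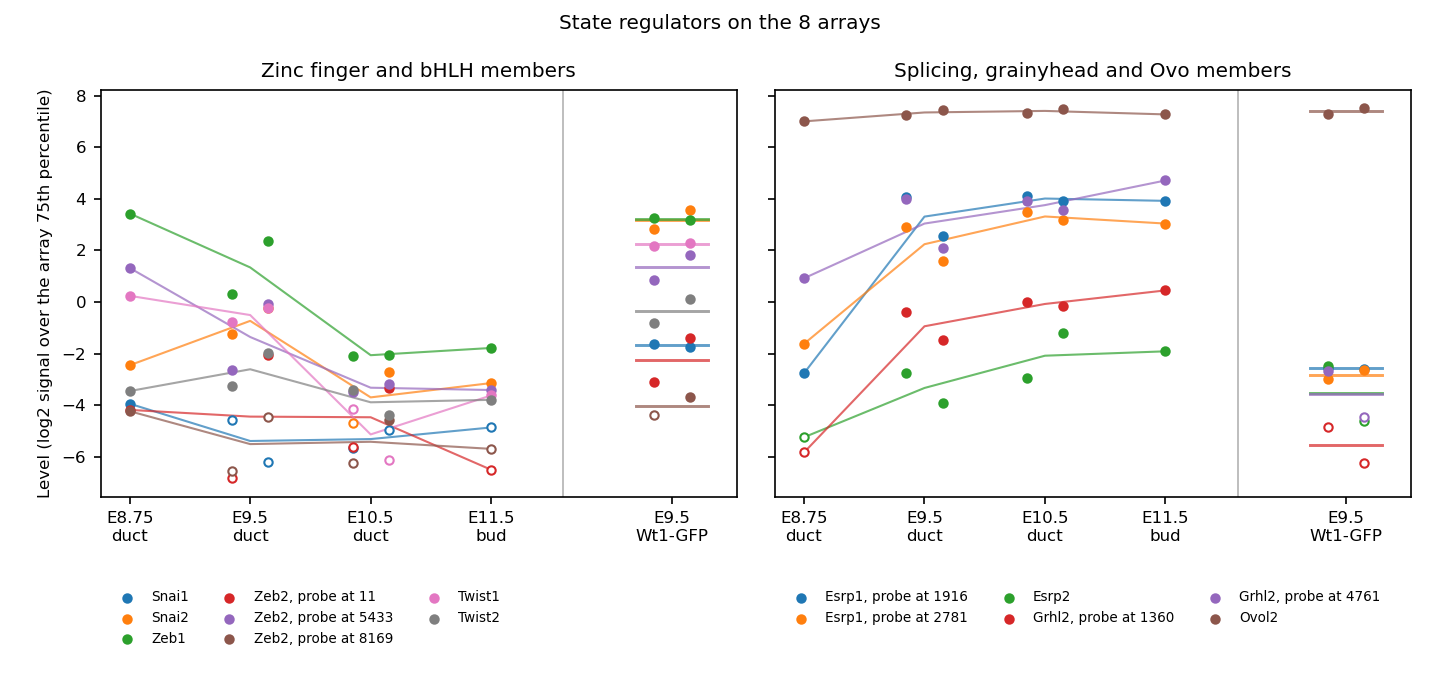
Level of each member probe on the 8 arrays (y axis, log2 signal over the array's 75th percentile), with the mesenchymal regulators on the left and the epithelial ones on the right. Filled points were well above background and open points were not, the caudal part stands left of the rostral part, lines join the duct group means, and bars mark the Wt1-GFP means. Zeb1 stands at 3.43 at E8.75 and at -1.78 at E11.5, Esrp1 at 1916 at -2.76 and at 3.92, and Ovol2 stays between 7 and 7.51.

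The E9.5 duct was first set against the Wt1-GFP cells of the same day. Esrp1 and Grhl2 were higher in the duct, Snai1, Snai2, Zeb2, Twist1 and Twist2 were lower, and Esrp2 and Ovol2 differed by less than their standard errors. No probe on the array passed an adjusted p of 0.05 in limma (0 of 45562 tested, 0% called, lowest adjusted p 0.21), whereas 5342 had an unadjusted p under 0.05. At that unadjusted level, 4 of the 14 member probes were higher in the duct, where 6.1% of all tested probes were, and 6 were lower, where 5.62% were. Some of these are probes of the same gene. By the brightest probe of each gene, 2 of 10 members were higher and 5 lower, against 6% and 5.75% of all genes. When limma's prior variance was allowed to follow intensity, 791 probes passed the adjusted threshold (1.74% of those tested) and 5 were member probes: both of Esrp1, both of Grhl2, and Snai2, at adjusted p of 0.0099 to 0.023. With normexp background correction 284 probes passed (0.623%), again with 5 member probes, Twist1 taking the place of the Grhl2 probe at 1360.

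Snai2 (Slug) had levels of -1.23 and -0.23 in the caudal and rostral E9.5 duct, against 2.83 and 3.56 in the Wt1-GFP cells. The duct was 15.2-fold lower (log2 difference -3.93, SE 0.40, adjusted p = 0.22). Snai1 (Snail) was at -1.61 and -1.75 in the Wt1-GFP cells and was not well above background in either part of the E9.5 duct, nor in either E10.5 part or the bud. It was at least 6.91-fold lower in the E9.5 duct (adjusted p = 0.28), and E8.75, at -3.94, was the only duct array on which it was measured.

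Twist1 had -0.77 caudally and -0.24 rostrally in the E9.5 duct, while Wt1-GFP cells had 2.19 and 2.27, a 6.65-fold lower level (log2 difference -2.73, SE 0.72, adjusted p = 0.37). Twist2 was at -3.24 and -1.97 in the duct and at -0.83 and 0.13 in the Wt1-GFP cells (log2 difference -2.25, SE 0.66, adjusted p = 0.39). The Wt1-GFP levels of both genes lay above those of all 6 Hoxb7-GFP arrays, as did those of Snai1 and Snai2. Of all tested probes, 8.24% had all 6 Hoxb7-GFP arrays below both Wt1-GFP arrays.

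Zeb1 had duct levels that ranged widely. It was at 0.3 and 2.38 in the caudal and rostral E9.5 duct and at 3.27 and 3.16 in the Wt1-GFP cells (log2 difference -1.87, SE 0.67, adjusted p = 0.43). The E8.75 duct array, at 3.43, lay above both Wt1-GFP arrays. Zeb2 has 3 probes. The brightest, at 5433, stood at -2.64 caudally and -0.07 rostrally in the duct of E9.5, while the Wt1-GFP cells stood at 0.85 and 1.84 (log2 difference -2.70, SE 0.64, adjusted p = 0.35), and the probe at 11 was lower in the duct by 2.19 on the log2 scale, or by 1.13 with values held at the array floors, that is, set no lower than the dimmest probe well above background on the array. The probe at 8169 was not well above background in either part of the E9.5 duct, which makes it at least 1.42-fold lower there.

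Esrp1, the splicing regulator that drops out when cells become mesenchymal, was at 4.08 and 2.54 in the caudal and rostral E9.5 duct, against -2.54 and -2.59 in the Wt1-GFP cells, by the probe at 1916. That is a 58.5-fold higher level (log2 difference 5.87, SE 0.49, adjusted p = 0.21). The probe at 2781 gave 2.9 and 1.58 in the duct and -2.99 and -2.65 in the Wt1-GFP cells, a 33.4-fold higher level. The caudal and rostral parts of a group differed by at most 1.54 for either probe. Its relative Esrp2 was at -2.75 and -3.91 in the duct and at -2.48 and -4.6 in the Wt1-GFP cells, the last not well above background, and the groups overlapped (log2 difference 0.21, SE 1.06, adjusted p = 0.95).

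Grhl2, the grainyhead factor of junction genes, was at 4 and 2.08 in the caudal and rostral E9.5 duct by its brighter probe at 4761, against -2.66 and -4.44 in the Wt1-GFP cells, where the rostral array was not well above background. The difference was 6.59 on the log2 scale (SE 0.50, adjusted p = 0.21), or 6.35 with values held at the array floors. The probe at 1360 was at -0.39 and -1.49 in the duct and not well above background on either Wt1-GFP array, which makes the duct at least 8.85-fold higher. The brighter Grhl2 probe and the Esrp1 probe at 2781 had all 6 Hoxb7-GFP arrays above both Wt1-GFP arrays, as 5.81% of all tested probes had. The Grhl2 probes lie on chromosome 15 (mm9), at chr15:37293139-37293198 for the brighter and chr15:37239426-37239485 for the other, and the brighter one ends in a short run of A. Its last 30 bases are shown because the probes differ most at E8.75 (below), with the run in capitals.
Grhl2 probe at 4761: gtgtgtacaatctgttcccacattAAAAAA

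**Figure D2:**
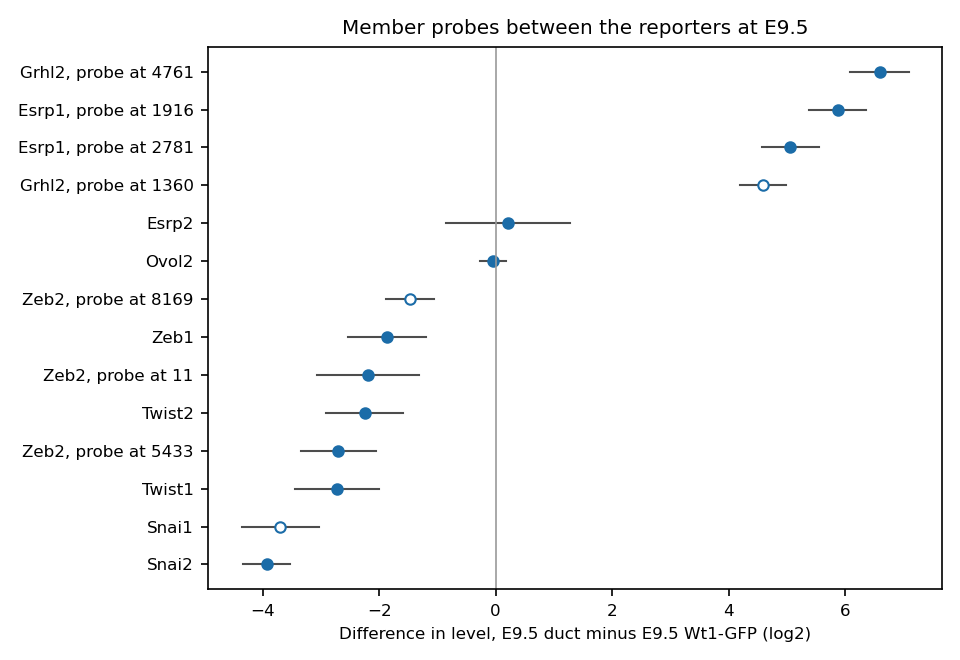
Difference in level of each member probe, E9.5 duct minus E9.5 Wt1-GFP cells (x axis, log2), with bars of 1 standard error of the limma fit. Open points mark probes that no array of 1 of the groups measured above background. Grhl2 and Esrp1 stand at 4.59 to 6.59, Esrp2 and Ovol2 near 0, and the Snail, Zeb and Twist probes at -3.93 to -1.47.

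The E9.5 duct and Wt1-GFP arrays lay in different rows of the slide, and row was not separable from the reporter among the arrays of that day. With slide row as a block (1 residual degree of freedom, adjusted p 0.68 to 1) the Esrp1 and Grhl2 differences were 3.51 to 5.23 on the log2 scale, Snai2 -5.03 and Snai1 -5.31, while Zeb1, Zeb2 at 5433, Twist1 and Twist2 were at -0.93, -1.22, -0.46 and -0.17. The medians of the epithelial and mesenchymal effector lists described below were then 2.24 and -0.7. Row in this fit rests on the E10.5 pair alone, the only group with arrays in both rows. Twist1 and Snai1 were not well above background on either E10.5 array, nor was Snai2 on the caudal one. Their values in this fit thus rest partly on such spots. With the intensity-dependent prior variance and slide row together, 0 member probes passed the adjusted threshold between duct and Wt1-GFP cells. Within slide row 2 alone, where the caudal E10.5 duct and the bud can be set against the Wt1-GFP cells without a test, the differences were 5.76 to 7.87 for Esrp1 and Grhl2, -5.14 for Zeb1 and -6.11 for Twist1. These last values compare different days. Markers of other cells differed between the groups as well: 10 of 11 lateral plate markers were lower in the E9.5 duct (median -1.89), and 12 of 14 endothelial markers were higher (median 1.63). Of all 29528 genes, 15846 were lower and 13682 higher. The part of those other cells in the member differences was not tested.

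The Ovol2 signal varied little between arrays. Its only probe was at 7 at E8.75, 7.25 and 7.44 in the caudal and rostral E9.5 duct, 7.32 and 7.49 at E10.5, 7.27 at E11.5, and 7.27 and 7.51 in the Wt1-GFP cells. It was brighter than 99.4% of all probes, with a range of 0.51. The probe, at chr2:144131071-144131130 (mm9, minus strand), carries a repeat of 4 letters, which is why 30 of its bases are shown, with the repeat in capitals.
Ovol2 probe, bases 19 to 48: gtatgtgTGTCTGTCTGTCTGTCtgttatg
Of 6 other probes on the array that hold the unit TGTC 3 times in a row on the same strand, 2 had a mean level above 6, against 1.57% of all probes, and the 1 probe that holds it on the other strand did not. The median range of those 6 over the arrays was 0.7, against 1.62 for all probes. Of the 285 probes within 0.5 of its mean level, 28.4% had a smaller range. The part of the repeat in this signal was not tested. Its relative Ovol1 was higher in the E9.5 duct, at -2.05 and -1.63, against -3.37 and -3.53 in the Wt1-GFP cells (log2 difference 1.6, SE 0.41, unadjusted p = 0.019).

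Along the duct series, Esrp1 and Grhl2 differed more between E8.75 and E9.5 than between E9.5 and E10.5, and Snai2, Zeb1 and Twist1 the other way round; the steps were not tested against each other. Between E8.75 and E9.5, 5 of 14 member probes were higher at an unadjusted p under 0.05 (both of Esrp1, both of Grhl2, and Snai2), where 7.36% of all probes were, and 1 was lower (Zeb2 at 5433), where 7.16% were. Between E9.5 and E10.5, 0 were higher, where 3.85% of all probes were, and 4 were lower (Snai2, Zeb1, Zeb2 at 5433 and Twist1), where 3.49% were. Markers of other cells were lower at E10.5 too: 10 of 11 lateral plate markers (median -2.35), 7 of 9 somite markers (median -1.5) and 14 of 14 endothelial markers (median -0.91). Of all 29528 genes, 14740 were lower. The part of those other cells in the member and mesenchymal effector differences of this step was not tested. No probe passed the adjusted threshold in limma in either step (0% called, with 6619 and 3342 probes at an unadjusted p under 0.05).

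Esrp1 at 1916 was at 4.08 and 2.54 at E9.5, against -2.76 at E8.75, a 67.4-fold higher level (log2 difference 6.07, SE 0.59, adjusted p = 0.23). It was at 4.09 and 3.93 in the caudal and rostral E10.5 duct and 3.92 in the bud. The E8.75 level lay just below both Wt1-GFP levels, -2.54 and -2.59, by this probe. It was the 1 member probe that passed the adjusted threshold in this step with the intensity trend (adjusted p = 0.048, 23 probes or 0.0505% of all called) and with normexp (adjusted p = 0.042, 195 probes or 0.428%). The probe at 2781 was higher by 3.86 (SE 0.60, adjusted p = 0.23). Its E8.75 level, -1.62, lay above both Wt1-GFP levels, -2.99 and -2.65.

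The Grhl2 probes differed in how early they were detected. The probe at 4761 was at 0.92 at E8.75, 4 and 2.08 in the caudal and rostral E9.5 duct, 3.93 and 3.58 at E10.5, and 4.71 in the bud. The probe at 1360 was not well above background at E8.75, and was then at -0.39 and -1.49, at 0.01 and -0.16, and at 0.45. The step from E8.75 was thus 2.12 (SE 0.61, adjusted p = 0.31) by the first probe and at least 13-fold (adjusted p = 0.23) by the second. Esrp2 was not well above background at E8.75 and lay between -3.91 and -1.21 on the later duct arrays, with no unadjusted p under 0.05 in any step.

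Zeb1 was at 3.43 at E8.75, 0.3 and 2.38 in the caudal and rostral E9.5 duct, -2.08 and -2.04 at E10.5, and -1.78 in the bud. The E10.5 duct lay below that of E9.5 (log2 difference -3.40, SE 0.67, adjusted p = 0.60). Zeb2 at 5433 was at 1.32 at E8.75, -2.64 and -0.07 at E9.5, -3.47 and -3.17 at E10.5, and -3.41 in the bud, so its E9.5 duct was 6.37-fold lower than E8.75 and its E10.5 duct a further 3.9-fold lower (adjusted p = 0.31 and 0.67). Endothelial cells express Zeb genes, and the endothelial and endoderm markers given above were high on the same E8.75 array; their part in the E8.75 levels was not tested.

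Twist1 was at 0.24 at E8.75 and -0.77 and -0.24 in the E9.5 duct, and was not well above background in either part of the E10.5 duct. This puts the E10.5 duct at least 14.4-fold below the E9.5 duct (adjusted p = 0.60). In the bud it was at -3.62. Snai2 had its highest duct levels at E9.5: it was at -2.45 at E8.75, higher at E9.5 (log2 difference 1.72, SE 0.49, adjusted p = 0.31), and lower again at E10.5, at -2.71 in the rostral part and not well above background in the caudal part (log2 difference -2.96, SE 0.40, adjusted p = 0.60). Twist2 lay between -4.37 and -1.97 on all duct arrays.

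Snai2, Zeb1, Zeb2 at 5433 and Twist1 had all 3 duct arrays of E10.5 and E11.5 below all 3 of E8.75 and E9.5, as 5.47% of tested probes had. The Esrp1 probe at 2781 and the Grhl2 probe at 1360 had all 3 late arrays above the early ones, as 6.12% had. The early arrays and the rostral E10.5 array lay in slide row 1, and the caudal E10.5 array and the bud in row 2. Stage and slide row thus partly coincide in this split and in the steps after E9.5. Between E10.5 and the bud, 0 member probes had an unadjusted p under 0.05, where 12.2% of all probes did, and 0 of 5540 such probes passed adjustment in limma (0% called).

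Within the E9.5 duct the rostral part stood closer to the Wt1-GFP cells than the caudal part did for Snai2, Zeb1, Zeb2, Twist1, Twist2, Esrp1 and Grhl2. Snai1 went the other way, at -4.57 caudally and -6.2 rostrally, neither well above background. The share of all probes that stood closer rostrally was not counted, so the pattern is not shown to be particular to the members. Zeb1 was at 0.3 caudally and 2.38 rostrally, Zeb2 at 5433 at -2.64 and -0.07, Esrp1 at 1916 at 4.08 and 2.54, and Grhl2 at 4761 at 4 and 2.08. This is 1 array against 1, with no test. At E10.5 the same probes differed between caudal and rostral by -0.04, -0.3, 0.15 and 0.35. The caudal and rostral E10.5 arrays lay in different slide rows, so position and row cannot be told apart at E10.5. Other probes differed more there: Snai2 by -1.97, with its caudal array not well above background, Twist2 by 0.96, the opposite direction to E9.5, and Zeb2 at 11 by -2.29 and at 8169 by -1.65, with their caudal arrays not well above background, while Twist1 was not well above background in either part. Over the 3 groups that were split, the position term had an unadjusted p under 0.05 for 4 of 14 member probes, where 6.35% of all probes had one: Grhl2 at 4761 was higher caudally by 1.35 (SE 0.41), and Snai2 and the Zeb2 probes at 11 and 8169 were lower by 1.23, 2.92 and 1.48. The Zeb2 values rest partly on spots not well above background: with values held at the array floors they were -1.66 and -0.08. None passed adjustment (adjusted p = 0.77 each, 0% of all probes called by limma, 2894 at an unadjusted p under 0.05). Markers of other cells differed between the same 2 E9.5 duct arrays: the 11 lateral plate markers had a median of -3.67 caudally and -0.5 rostrally (sums 9.26 and 13.6), and the 10 neural tube markers -1.66 and 0.36 (sums 50.4 and 164). The 8 neural crest markers had medians of -1.64 and 0.1, with a sum of 10.4 on both arrays. The part of those cells in the position difference was not tested.

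The Zeb2 probe at 11 was low or undetected caudally. It was at -6.83, not well above background, and -2.05 in the caudal and rostral E9.5 duct, at -5.61 (also not well above background) and -3.32 at E10.5, and at -3.1 and -1.4 in the Wt1-GFP cells. Its sequence lies from position -176 to -117 relative to 1 of the 4 listed starts of Zeb2 (RefSeq, GRCm38.p6, window chr2:45110228-45110527, minus strand).

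The genes most like each member were taken as the 5 with the smallest root mean square difference over the 8 arrays, after each profile was floored and centred. Among the genes closest to Zeb1 were Zeb2 (0.61), Pknox2, Vim and Zbtb16, and Zeb2 was closest to Gata6, Tgfb2 and Zeb1 (0.6 to 0.61). Snai2 was closest to Foxd2 (0.5), Dlk1, Foxd1, Alx1 and Ddr2, and Twist1 to Meis1 (0.46), Zbtb16, Cdh11, Ifitm1 and Nid1. Esrp1 was closest to St14 (0.47), a membrane serine protease of epithelia, then Septin4, Wnt9b, Mal2 and Kdf1, and Grhl2 to the claudin Cldn6 (0.62), Mal, Marveld2, Tfap2a and Dkk1. The median over all genes was 2.15 to 3.12 for these members. Twist2, which was low on most arrays, was closest to Prdm6 (0.21), against a median of 1.42. The 8 arrays differ in stage as well as cell type, so the likeness is a description.

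Genes that carry out the 2 states were read from lists, by the brightest probe of each gene. The 32 epithelial effectors include genes of adhesions, tight junctions and keratin filaments, and others such as the protease gene St14. Of these, 28 were higher and 4 lower in the E9.5 duct than in Wt1-GFP cells, with a median difference of 3.35 on the log2 scale. At an unadjusted p under 0.05 in limma, 22 were higher and 1 was lower. Over all 29528 genes the shares were 6% and 5.75% and the median -0.05. With values held at the array floors the median was 2.43. Genes named by the size of the fitted difference, which for several rests on Wt1-GFP values below background, were Mal2 (67.2-fold at the array floors, at 3.37 and 1.23 in the caudal and rostral duct, against -3.59 and -6.23 in the Wt1-GFP cells, the last not well above background), St14, the tight junction genes Marveld3 (at least 24.9-fold) and Marveld2 (at least 28.5-fold), Cldn6 and Cldn8 (at least 13.7-fold). Krt19 was the 1 that was lower at an unadjusted p under 0.05, by 3.28 on the log2 scale. The other keratin genes of the list, named after their values were seen, were Krt7, Krt8 and Krt18. They were higher by only 0.61, 0.56 and 0.24 (limma, unadjusted p = 0.28, 0.21 and 0.72). The brightest of the list, Pkp3, was at 8.31 to 8.54 on all arrays. E-cadherin, Cdh1, chosen after its values were seen, was at -2.39 and -2.26 in the caudal and rostral E9.5 duct and not well above background on either Wt1-GFP array (at least 3.4-fold).

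Of 28 mesenchymal effectors, 26 were lower and 2 higher in the E9.5 duct than in the Wt1-GFP cells, 16 of those that were lower at an unadjusted p under 0.05 and 0 of the others, with a median of -1.34. Over all genes, 5.75% were lower and 6% higher at that level. Tgfbi, a matrix protein, was 22.4-fold lower, the collagen genes Col3a1 and Col1a1 18.6-fold and 8.06-fold, and the receptor gene Pdgfra 9.74-fold. Fibronectin, Fn1, the brightest of the list, was at 5.49 and 4.49 in the duct and 5.35 and 5.62 in the Wt1-GFP cells.

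**Figure D3:**
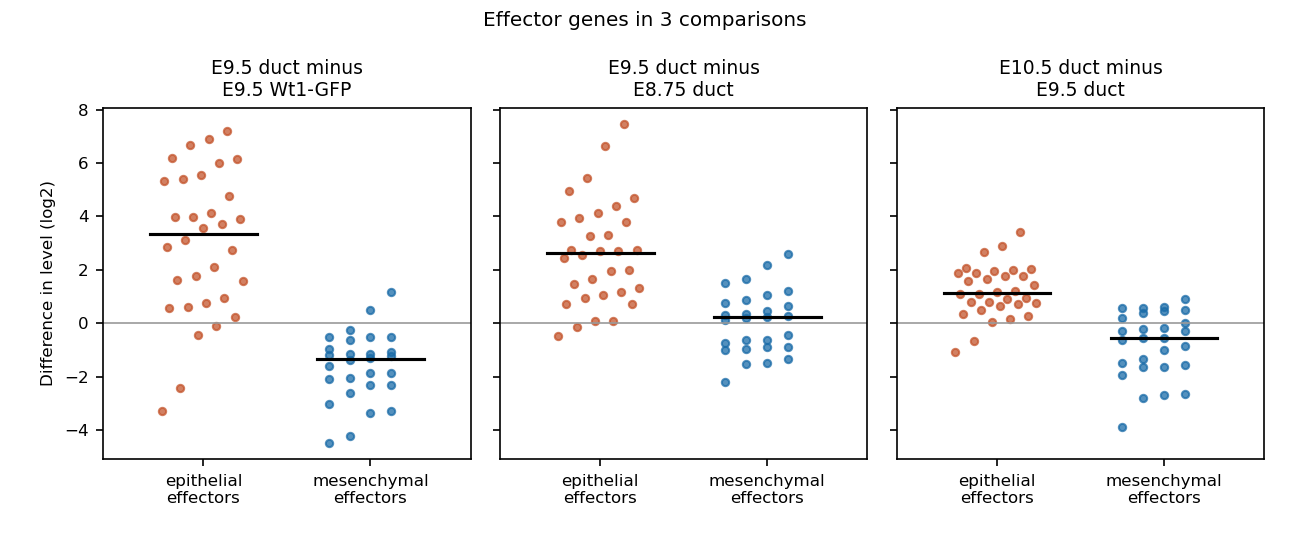
Difference in level (y axis, log2) of each of 32 epithelial and 28 mesenchymal effector genes in 3 comparisons, with a bar at the median. The epithelial medians are 3.35, 2.63 and 1.13 and the mesenchymal ones -1.34, 0.22 and -0.55. The mesenchymal median of 0.22 between E8.75 and E9.5 was -0.62 over the genes well above background on all 8 arrays.

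In the duct series, between E8.75 and E9.5, 30 of 32 epithelial effectors were higher at the later day, 19 at an unadjusted p under 0.05 (6.51% of all genes), with a median of 2.63. Mal2, St14 and Epcam were higher by 43.5-fold, 30.8-fold and 20.7-fold, and Marveld3, Cldn8 and Cldn3, not well above background at E8.75, by at least 36.7-fold, 20.2-fold and 5.37-fold. All 14 endothelial markers (median -3.46, 11 at an unadjusted p under 0.05) and 11 of 12 endoderm markers (median -3.8) were lower at E9.5 in the same step, and E8.75 is the duct group with no stated selection on Flk1. Of all 29528 genes, 15018 were lower in this step, 7.41% of all at that level. The part of endothelial and endoderm cells in the effector differences was not tested. The mesenchymal effectors were split, 16 higher and 12 lower, with a median of 0.22 that was -0.62 over the genes well above background on all 8 arrays, and Vim, the mesenchymal filament gene, was lower by 2.20 (unadjusted p = 0.01).

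Between E9.5 and E10.5, 30 of the 32 epithelial effectors were again higher at the later day, 12 at an unadjusted p under 0.05 (3.48% of all genes), with a median of 1.13, led by the kidney cadherin gene Cdh16 (log2 difference 3.43). Of the 28 mesenchymal effectors, 19 were lower and 9 higher, 6 of those that were lower at an unadjusted p under 0.05 (3.25% of all genes), with a median of -0.55, or -0.29 with values held at the array floors. N-cadherin, Cdh2, was at 6.35 at E8.75, 5.43 and 5.5 in the caudal and rostral E9.5 duct, 2.93 and 2.65 at E10.5 and 2.97 in the bud, against 5.77 and 6.23 in the Wt1-GFP cells. Its duct levels from E10.5 on lay below those up to E9.5, as was so for 5.47% of tested probes. The log2 difference between E9.5 and E10.5 was -2.68 (limma, unadjusted p = 0.0011). Pdgfra, Cdh11 and Vim differed in the same step by -3.89, -2.81 and -2.67. Cdh1 was not well above background at E8.75, then at -2.39 and -2.26, at -1.04 and -0.47, and at -1.07.

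**Figure D4:**
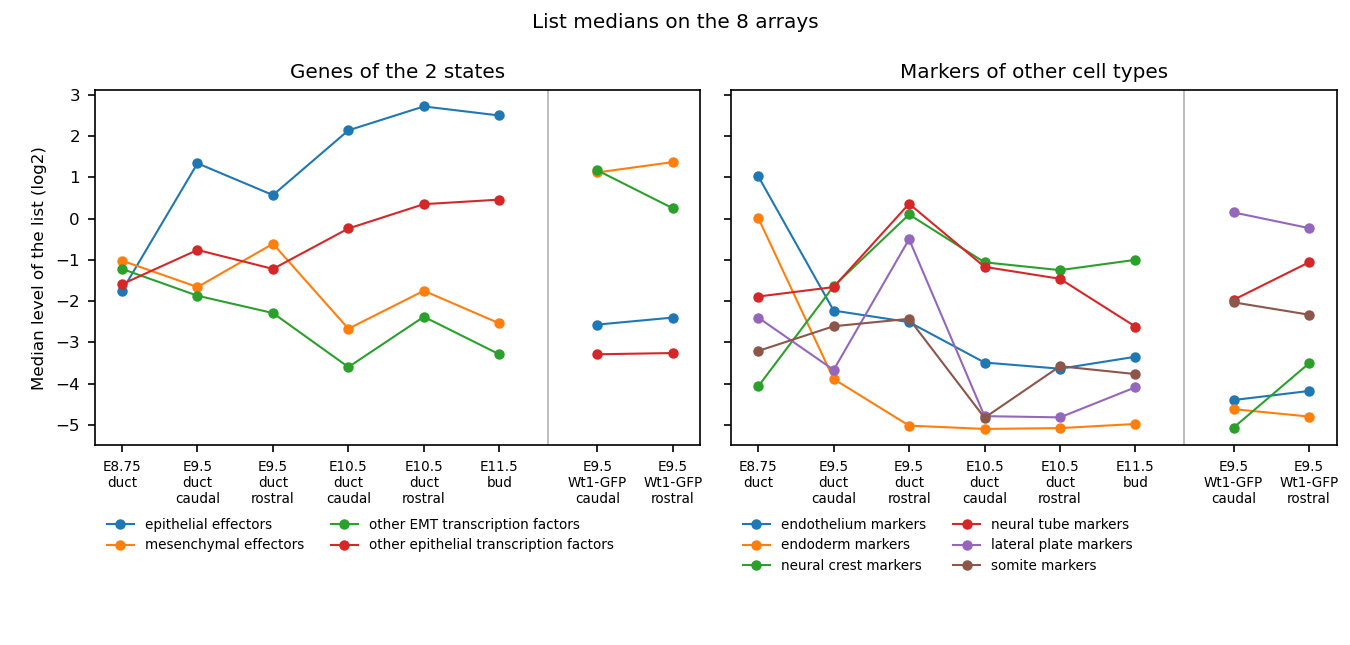
Median level of each gene list (y axis, log2) on each array, with genes of the 2 states on the left and markers of other cell types on the right. The epithelial effectors stand at -1.75 at E8.75 and at 2.5 in the bud, and the endothelial and endoderm markers are highest at E8.75.

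Other regulators of the same kind were mixed. Of 10 measured further transcription factors of the mesenchymal transition, 8 were lower and 2 higher in the E9.5 duct than in Wt1-GFP cells, 7 of those that were lower at an unadjusted p under 0.05. Over all genes, 5.75% were lower and 6% higher at that level. Foxc1 and Foxc2 were 21-fold (at the array floors) and 17.5-fold lower, Six2 12.6-fold and Tcf21 8.9-fold. Of 11 further epithelial factors, 8 were higher and 3 lower, with 4 and 0 at that level, among them Tfap2b (at least 214-fold), Tfap2a (77.5-fold at the array floors) and Elf3 (4.49-fold). Tfap2a was well above background on 1 of the 2 Wt1-GFP arrays, and Foxc1 and Six2 on 1 of the 2 E9.5 duct arrays. Tfap2a is also a neural crest marker. Among 6 measured relatives of Grhl2 and Ovol2, Tfcp2l1 was at 0.49 and 1.19 in the caudal and rostral E9.5 duct, 3.52 and 4.8 at E10.5 and 5.33 in the bud, and not well above background on either Wt1-GFP array (at least 30.5-fold, unadjusted p = 0.00018). Grhl3 was not well above background in the E9.5 duct.

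The 8 partners and antagonists of Twist proteins included 5 that were lower in the E9.5 duct at an unadjusted p under 0.05 and 0 that were higher: Hand2, Hand1, Id1, Id2 and the E protein gene Tcf3, with Hand1 and Hand2 each measured on 1 of the 2 duct arrays. Over all genes, 5.75% were lower and 6% higher at that level. Among 10 known targets of ESRP splicing, 1 was higher and 2 were lower at that level. Fgfr2, whose epithelial exon is included by Esrp proteins, was at 2.68 and 2.24 in the caudal and rostral E9.5 duct, against 1.39 and 1.08 in the Wt1-GFP cells (log2 difference 1.23, SE 0.26, unadjusted p = 0.011). These probes give the level of the gene and were not used to tell its isoforms apart. Of 8 other splicing regulators, Rbm47 was higher by 3.67 and Ptbp1 lower by 0.68. Of 9 genes of TGF-beta signalling, which induces Snail and Zeb genes, Tgfb2 was lower in the duct by 2.17 (unadjusted p = 0.023), and at E9.5 Smad4 was lower than at E8.75 by 1 on the log2 scale. Tgfb1 was well above background at E8.75 only, the array with the endothelial markers. None of the 7 names searched for the miR-200 and miR-205 family hosts, whose miRNAs silence Zeb1 and Zeb2, had a tested probe.

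Promoter sequences bear on the lists through the E-box that Snail and Zeb proteins bind. RefSeq windows of GRCm38.p6, from 250 bases before to 50 bases after a start, were searched for CAGGTG, which reads CACCTG on the other strand, for the grainyhead core ACCGGT, the same on both strands, and for the Ovo motif CCGTTA or TAACGG. The E-box was in 22.6% of 27025 genes with a window and in 20.2% of windows. Of the 32 epithelial effectors, 20 had a window and 18 of these held an E-box (90%), 10 of them 2 or more (50%, against 3.32% of all genes). Of the 28 mesenchymal effectors, 15 had a window and 1 held an E-box (6.67%). Median GC content was 61.3% over the epithelial windows, 56.7% over the mesenchymal windows and 52.7% over all windows. The lists hold genes known for their link to these factors, so the shares describe the lists, and a match is not a bound site.

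**Figure D5:**
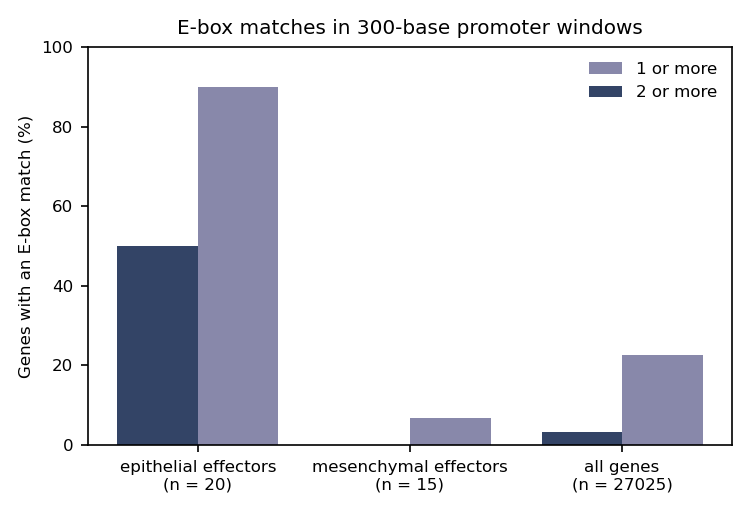
Share of genes with a promoter window that hold the E-box (y axis, percent), once or more and 2 times or more, among 20 epithelial effectors, 15 mesenchymal effectors and all 27025 genes. The epithelial effectors stand at 90% and 50%, the mesenchymal effectors at 6.67% and 0%, and all genes at 22.6% and 3.32%.

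The following windows are shown for the matches they hold. Crb3 and Ap1m2, like Lsr, hold the E-box 4 times each. Epcam holds the E-box 2 times and the grainyhead core 2 times. Snai1 is the 1 of 5 members with a window that holds an E-box. These windows were chosen after the matches were counted. The grainyhead core was in 2 of the 20 epithelial effectors with a window (10%), against 2.68% of all genes. It was there 2 times or more in 1 of the 20 (5%), against 0.0666% of all genes. Capitals mark the matches. Crb3 (chr17:57061951-57062250, plus strand) has its E-boxes 118, 63 and 7 bases before the start and 26 after it, and the Ovo motif 69 before, directly beside the second E-box. Ap1m2 (chr9:21312284-21312583, minus strand) has them 81, 51, 21 and 9 bases before the start. Epcam (chr17:87635729-87636028, plus strand) has E-boxes at 187 and 19 bases before the start and the core at 174 and 131. Snai1 (chr2:167537945-167538244, plus strand) has its E-box 126 bases before the start. No 2 matches overlap.
Crb3: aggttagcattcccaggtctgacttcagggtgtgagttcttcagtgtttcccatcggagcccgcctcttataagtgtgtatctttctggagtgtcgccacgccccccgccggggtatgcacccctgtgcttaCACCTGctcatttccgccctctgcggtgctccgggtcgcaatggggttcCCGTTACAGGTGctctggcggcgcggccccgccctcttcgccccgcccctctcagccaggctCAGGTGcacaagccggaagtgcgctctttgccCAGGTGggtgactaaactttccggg
Ap1m2: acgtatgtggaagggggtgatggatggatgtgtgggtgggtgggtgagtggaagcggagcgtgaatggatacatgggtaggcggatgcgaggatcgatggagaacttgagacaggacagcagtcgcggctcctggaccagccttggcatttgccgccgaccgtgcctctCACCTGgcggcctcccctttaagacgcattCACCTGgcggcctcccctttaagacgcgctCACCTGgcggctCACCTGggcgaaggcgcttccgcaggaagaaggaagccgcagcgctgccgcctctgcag
Epcam: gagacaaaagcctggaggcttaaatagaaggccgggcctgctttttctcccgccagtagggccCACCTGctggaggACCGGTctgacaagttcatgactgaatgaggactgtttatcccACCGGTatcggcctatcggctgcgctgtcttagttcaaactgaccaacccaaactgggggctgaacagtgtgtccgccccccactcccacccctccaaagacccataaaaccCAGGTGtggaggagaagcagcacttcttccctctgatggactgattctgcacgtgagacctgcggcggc
Snai1: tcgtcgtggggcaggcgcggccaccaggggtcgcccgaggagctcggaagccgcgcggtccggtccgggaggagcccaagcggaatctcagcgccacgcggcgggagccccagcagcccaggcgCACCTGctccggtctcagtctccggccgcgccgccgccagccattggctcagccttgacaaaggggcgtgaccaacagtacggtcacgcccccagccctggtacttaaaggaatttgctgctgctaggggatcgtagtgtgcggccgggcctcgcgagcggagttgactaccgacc
The genes with these windows had the following levels. Crb3, a polarity gene, was at 0.85 and 0.33 in the caudal and rostral E9.5 duct and not well above background in the Wt1-GFP cells (at least 25.6-fold, unadjusted p = 0.00018). Ap1m2, a sorting adaptor of epithelia, was at 0.17 and -1.26 in the duct and also not well above background in the Wt1-GFP cells (at least 11.7-fold). Epcam, an adhesion molecule, was at 4.44 and 2.62 in the duct, against -1.13 and -2.93 in the Wt1-GFP cells, a 47.1-fold higher level. Lsr, a tricellular junction gene whose window is not shown, was at 5.04 and 4.02 in the duct, against 3.65 and 3.54 in the Wt1-GFP cells (log2 difference 0.94, SE 0.38, unadjusted p = 0.076). Crb3, Ap1m2, Epcam and Lsr were named for their windows after their values were seen.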

How the data were processed

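Gene expression was measured on 8 one-colour Agilent arrays, 1 sample each, in 5 groups. The scanner files hold processed signal intensity, background-subtracted and written by Feature Extraction 10.7.3.1 per the file headers, as deposited by the authors. The labels' protocols name NuGEN WT-Ovation Pico amplification of 10 ng of total RNA before Cy3 labelling, which can distort the levels of scarce transcripts. The authors also deposited a value table of log2 values, whose scaling and centring are not stated. Its columns have medians of -0.07 to 0.08, each probe was close to a median of 0 (largest 0.005), and it correlated with the centred scanner values at r = 0.9998. It served as an alternative.

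Of 59305 spots that are not controls, outlier spots were left out and spots of 1 probe averaged, which kept 55663 probes. Log2 signals were scaled to each array's 75th percentile (signals of 242.929 to 316.725). Tested were 45562 probes well above background on at least 1 array, with limma 3.58.1 in R 4.3.3, as 5 group means and a term for caudal against rostral position (2 residual and 1.74 prior degrees of freedom). P-values were adjusted by Benjamini-Hochberg over all tested probes, and the number of arrays limits the precision. "At least" folds are given where no array of a group measured the probe above background; its level was then set no lower than the array's dimmest probe above background (-4.76 to -3.95). The script was tested on simulated data.

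The members and lists were chosen with earlier results of these data known, so they support nothing by themselves. From each list the text names up to 6 genes by size of difference, those past the threshold first, and the brightest. Gene names came from probe accessions through RefSeq for 26755 probes, from the probe's symbol for 3817 and from the file's own name for the other 25091. Promoter windows are those of RefSeq on GRCm38.p6 and probe coordinates are on mm9, and the builds were not mixed. Alternatives changed the background correction, normalization, filter, variance model, slide row, position term and arrays. All arrays were on 1 slide with 1 scan time, in 2 rows. Some genes of the lists are counted but not reported by name here.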

Additional observations from a re-analysis of the deposited data

Results flagged for a closer look

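Esrp2 was lower in the caudal than in the rostral part of the E10.5 duct, by -1.74 on the log2 scale, whereas in the Wt1-GFP cells the caudal part was higher by 2.12. It stands out because the E10.5 duct and the Wt1-GFP cells differed in opposite directions. The E9.5 duct went the same way as the Wt1-GFP cells, with the caudal part higher by 1.16. Each value rests on 1 array against 1, the rostral Wt1-GFP array was not well above background, and the difference between the groups was not tested. The caudal and rostral E10.5 arrays also lay in different slide rows.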

How the results depend on the processing

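No paired analysis was possible because the labels carry no replicate numbers that pair samples; caudal and rostral position is a term of the model. Leaving out replicate 1 (rostral) or 2 (caudal) of a group assumes that the lone array varies like the other groups, and left 0 member probes past the adjusted threshold in each comparison (0 to 0). With the intensity trend the count of member probes past it was 5 between the E9.5 duct and Wt1-GFP cells and 1 between E9.5 and E8.75. With normexp it was also 5 and 1. With the intensity trend and slide row as a block together it was 0 in both comparisons. Signs turned mainly for probes near 0. Esrp2 in the E9.5 duct minus Wt1-GFP was -0.08 with normexp, -0.11 with floored levels, -3.16 with slide row as a block (with and without the trend), -0.27 without the caudal E9.5 duct array, and -0.99 to 1.41 when each replicate was left out. Ovol2 there was 0.34 with quantile normalization, 0.01 with normexp and 0 with slide row. Zeb2 at 11 in E9.5 minus E8.75 was 0.17 with normexp, 0.81 floored and -1.65 to 1.14 with each replicate left out. In E10.5 minus E9.5 the values with each replicate left out were -0.89 to 1.03 for Snai1 (-0.73 without the rostral E10.5 array), -1.42 to 1.38 for Zeb2 at 11 (1.38 without the rostral E9.5 array, 0.45 without the rostral E10.5 array), -0.35 to 0.54 for Zeb2 at 8169 (-0.35 without the caudal E9.5 array, -0.04 without the rostral E10.5 array), -0.02 to 1.42 for Esrp1 at 1916, -0.44 to 2.94 for Esrp2 and -0.03 to 1.46 for Grhl2 at 4761. Normexp gave Snai1 -0.02, and quantile normalization gave Zeb2 at 8169 -0.17 and Ovol2 -0.02. The mesenchymal effector median in E9.5 minus E8.75 was -0.62 with probes well above background on all 8 arrays, and -0.02 to 0.22 with each replicate left out (-0.01 without the caudal E9.5 array). Other causes were not tested. Leaving out E8.75 or E11.5 removes its step, the E9.5 arrays alone give only the duct and Wt1-GFP comparison, a fit without position gives no position result, and the strictest filter drops several member probes. Dim probes of Snai1, Zeb2 and Esrp2 limit what can be read from them.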
